A study of Mus musculus with 12 samples.

Results

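The PDGF and VEGF ligands are secreted growth factors, and 7 of them (Pdgfa, Pdgfb, Pdgfc, Pdgfd, Vegfa, Vegfb and Vegfc) were followed by their gene symbols in a table of counts for 53599 genes. All 7 were present, and all 7 were among the 16210 genes that passed the filter on low counts. RNA was sequenced from sorted liver cells of mice labelled WT injected with AAV8-TBG-Cre, which delivers Cre recombinase under a promoter of hepatocytes and so traces them, and given, 1 week later, a diet with 0.1% DDC (3,5-diethoxycarbonyl-1,4-dihydrocollidine), which injures bile ducts, for 8 weeks. All groups had the virus and the diet, and cells from uninjured liver were not analysed here. EGFP+ Cd24- Epcam- cells form the early group, EGFP+ Cd24+ Epcam- cells the intermediate group and EGFP+ Cd24+ Epcam+ cells the full group, named in the labels for the stage of hepatobiliary reprogramming. EGFP- Epcam+ cells are the biliary epithelial cells, or BEC. There were 3 replicates per group. The labels do not give the allele that carries EGFP, the age of the mice or whether animals were pooled, so p-values measure only the spread between these samples, which may be technical.

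PDGF ligands act on the receptor tyrosine kinases Pdgfra and Pdgfrb of mesenchymal cells, and in injured liver they are known as signals for the division and migration of stellate cells and portal fibroblasts. Pdgfa and Pdgfb are cleaved inside the cell before secretion, whereas Pdgfc and Pdgfd carry a CUB domain that a protease outside the cell must remove. Vegfa acts on endothelial cells through Flt1 and Kdr, Vegfb binds Flt1, and Vegfc is the main ligand of Flt4 and a growth signal for lymphatic vessels.

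Promoter sequences were in hand for 6 of the 7 ligands, in 8 windows, from RefSeq with the build GRCm38.p6, which is not the build on which the reads were counted. Each window holds the 250 bases before an annotated start. The stretches for Pdgfc and Pdgfd are shown because both genes rose from early to full, and those of Vegfa and Vegfc because they took other courses. Only bases upstream of every annotated start of the gene are printed, 5′ to 3′ on the strand of the gene. Capitals mark matches, on either strand, to the HIF core ACGTG, the TEAD motif GGAATG, the AP-1 motif TGANTCA or the GC box GGGCGG.
Pdgfc promoter (GRCm38.p6, chr3:81036166-81036415, plus strand): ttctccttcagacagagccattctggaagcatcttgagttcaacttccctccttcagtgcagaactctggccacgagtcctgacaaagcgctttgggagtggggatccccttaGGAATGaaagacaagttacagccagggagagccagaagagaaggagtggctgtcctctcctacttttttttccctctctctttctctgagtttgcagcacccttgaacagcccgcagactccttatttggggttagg
Pdgfd promoter (GRCm38.p6, chr9:6168236-6168362, plus strand): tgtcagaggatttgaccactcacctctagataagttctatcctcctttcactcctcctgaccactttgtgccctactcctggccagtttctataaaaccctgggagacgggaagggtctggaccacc
Vegfa promoter (GRCm38.p6, chr17:46032378-46032627, minus strand): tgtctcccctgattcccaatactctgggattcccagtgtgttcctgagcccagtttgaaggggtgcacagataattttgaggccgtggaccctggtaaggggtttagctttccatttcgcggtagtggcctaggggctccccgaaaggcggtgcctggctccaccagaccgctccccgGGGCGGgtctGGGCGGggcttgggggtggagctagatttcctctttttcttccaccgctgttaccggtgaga
Vegfc promoter (GRCm38.p6, chr8:54077282-54077531, plus strand): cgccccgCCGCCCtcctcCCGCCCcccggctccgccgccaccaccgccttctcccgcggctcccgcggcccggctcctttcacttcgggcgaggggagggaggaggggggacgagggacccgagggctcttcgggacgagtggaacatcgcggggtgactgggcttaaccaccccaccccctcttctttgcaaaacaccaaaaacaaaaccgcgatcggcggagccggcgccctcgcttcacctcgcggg
In the full 250-base windows, Pdgfc held 1 TEAD motif, 137 bases before its start, and 0 of the other 3 motifs. A TEAD motif occurs in 12.6% of the 32851 windows of the RefSeq table. The Pdgfd window held 0 of the 4 motifs. GC boxes, found in 32.7% of all windows, numbered 2 in the Vegfa window printed here, 1 in the other Vegfa window, 2 in that of Vegfc, 4 in that of Vegfb, and 1 and 2 in the 2 windows of Pdgfa. The HIF core, found in 16.6% of all windows, had 1 match among the members, in the window of a downstream start of Vegfa. AP-1 motifs (6.75% of all windows) had 0 matches in the 8 windows. These matches describe letters and say nothing of binding.

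Totals ran from 15112893 to 19731887 counts per library. Levels are given in CPM, the usual scale on which each library is brought to the same total, after scaling by TMM, which aligns libraries on the genes that differ least. Mitochondrial transcripts took 5.45% to 11.4% of counts in the early libraries and 2.20% to 4.75% in the other 9. The sum of 10 hepatocyte markers lay between 101320 and 106144 CPM in early and between 2092 and 2758 CPM in BEC. The sum of 10 biliary markers lay between 954 and 1913 CPM in early and between 14805 and 18577 CPM in BEC.

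At the step from early to intermediate, 6 of the 7 ligands were called at a Benjamini-Hochberg adjusted p under 0.05 by edgeR's quasi-likelihood test, 4 higher and 2 lower. Of all genes tested, 54.4% were called at this step (28.7% higher, 25.7% lower). From intermediate to full, 4 were called, 3 higher and 1 lower, against 40.7% of all genes (20.8% higher, 19.8% lower). Between full and BEC, 4 were called, 2 higher and 2 lower in BEC, against 21.3% of all genes (10.7% higher, 10.6% lower). With shares this high among all genes, the counts are not read as particular to the ligands. The ligands took different courses. Pdgfb, Pdgfc and Pdgfd rose from early to full, Vegfa was lower in intermediate and full than in BEC, Vegfb was lowest in BEC, and Vegfc was highest in intermediate and near the limit of detection in BEC.

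**Figure D1:**
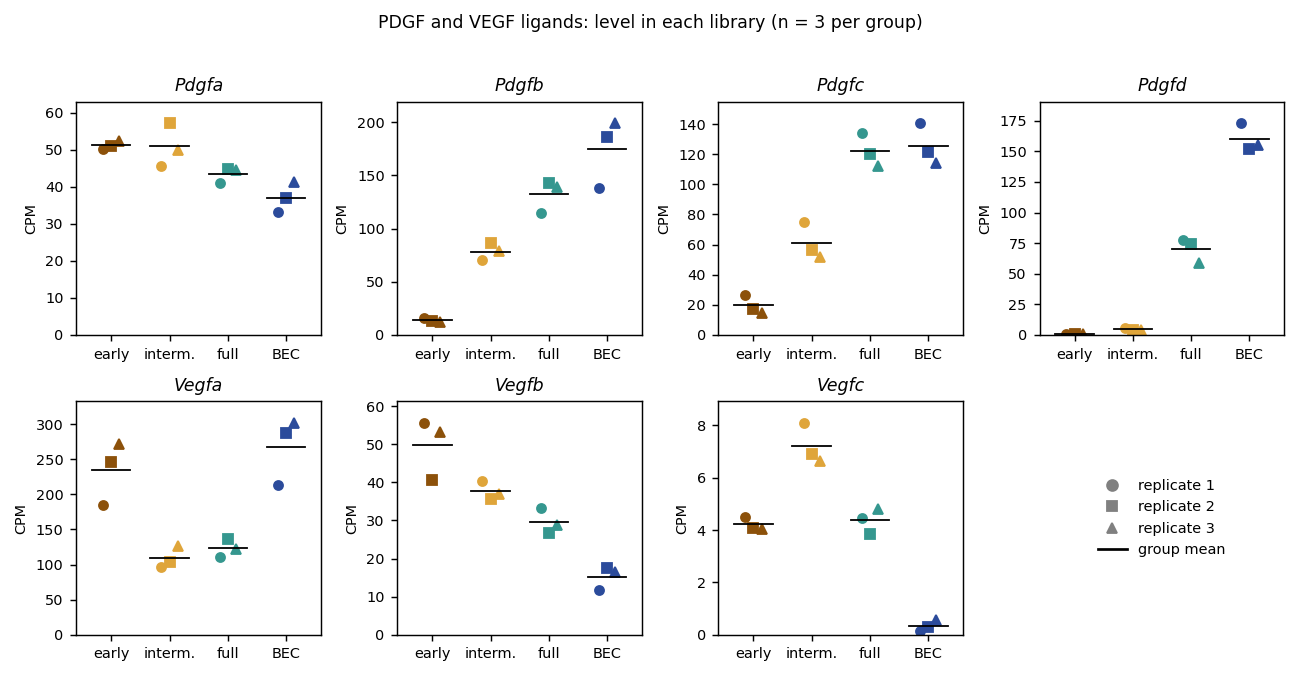
Level of the 7 ligands in each of the 12 libraries, in CPM on linear axes that start at 0, with marker shape for the replicate number and a line at the mean of each group of 3. Pdgfb, Pdgfc and Pdgfd are lowest in early, Vegfa is lowest in intermediate and full, and Vegfc is at 0.548 CPM or less in the 3 BEC libraries.

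Pdgfd, a ligand that signals mainly through Pdgfrb, had the steepest course of the 7. Early libraries had 0.475, 0.818 and 0.728 CPM, from only 6, 9 and 9 counts. Intermediate libraries had 5.72, 4.05 and 3.91 CPM, full libraries 77.4, 74.2 and 58.7 CPM, and BEC libraries 173, 152 and 155 CPM. The 4 groups did not overlap. The log2 fold change was 2.75 (SE 0.27, edgeR's adjusted p 1.23e-06) at the first step and 3.95 (SE 0.16, edgeR's adjusted p 4.92e-09) at the second. BEC exceeded full by a further 2.28-fold (log2 fold change 1.19, SE 0.13, edgeR's adjusted p 1.86e-05). Between BEC and early the fitted difference was 237-fold, with an early level that rests on 24 counts in all.

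Pdgfb, which binds both PDGF receptors and is a classical mitogen of stellate cells, was at 16.1, 13.2 and 12.6 CPM in early. It reached 70.1, 86.6 and 78.6 CPM in intermediate and 115, 143 and 139 CPM in full, with no overlap between these groups. The first step was 5.61-fold (log2 fold change 2.49, SE 0.16, edgeR's adjusted p 2.83e-08) and the second 1.69-fold (log2 fold change 0.76, SE 0.14, edgeR's adjusted p 0.000782). BEC libraries had 138, 186 and 199 CPM, and BEC replicate 1 lay within the full range. The difference between BEC and full was not called (log2 fold change 0.40, SE 0.14, edgeR's adjusted p 0.06). It was called with the replicate number as a block (0.39, edgeR's adjusted p 0.0243), with DESeq2 (adjusted p 0.0414), without a filter on low counts (edgeR's adjusted p 0.0373), without early replicate 1 (edgeR's adjusted p 0.0469) and without BEC replicate 1 (0.54, edgeR's adjusted p 0.00886). With 1 library left out, edgeR's adjusted p ran from 0.00886 to 0.227, and the test against a 2-fold change did not call the difference. BEC was above intermediate by 2.23-fold (edgeR's adjusted p 1.26e-05).

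Pdgfc, a ligand of Pdgfra, rose at both steps and was not called between full and BEC. Its values were 26.4, 17.6 and 14.9 CPM in early, 74.8, 56.5 and 52.02 CPM in intermediate and 134, 120.4 and 112 CPM in full. These 3 groups did not overlap. The rise was 3.11-fold at the first step (log2 fold change 1.64, SE 0.19, edgeR's adjusted p 7.21e-06) and 1.999-fold at the second (log2 fold change 0.9995, SE 0.18, edgeR's adjusted p 0.000512). BEC, with 141, 121 and 114 CPM, overlapped full (log2 fold change 0.04, SE 0.17, edgeR's adjusted p 0.924), and the sign of this small difference turned without full replicate 3 (-0.02) or BEC replicate 1 (-0.05). In each of the 4 groups replicate 1 had the most Pdgfc.

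Pdgfa, the PDGF A chain and a ligand of Pdgfra, moved least of the 7 on the TMM scale. Early libraries had 50.2, 50.9 and 52.4 CPM and intermediate libraries 45.6, 57.3 and 49.9 CPM, so the groups overlapped (log2 fold change -0.01, SE 0.10, edgeR's adjusted p 0.965). Full libraries had 40.9, 44.9 and 44.4 CPM and BEC libraries 33.1, 36.9 and 41.2 CPM. Neither full against intermediate (-0.23, SE 0.10, edgeR's adjusted p 0.0943) nor BEC against full (-0.23, SE 0.10, edgeR's adjusted p 0.154) was called, although the former was without intermediate replicate 1 (-0.30, edgeR's adjusted p 0.0453). Full against early was not called (-0.24, SE 0.10, edgeR's adjusted p 0.0561) but was with DESeq2 (adjusted p 0.0424), with median-of-ratios factors (edgeR's adjusted p 0.0415), in a fit of the 6 libraries compared (edgeR's adjusted p 0.0192), with the replicate block (edgeR's adjusted p 0.0281), without intermediate replicate 2 (edgeR's adjusted p 0.0441) and without BEC replicate 1 (edgeR's adjusted p 0.0434), and its direction turned when libraries were scaled by total counts only (0.63, edgeR's adjusted p 0.000107). BEC was lower than early (-0.47, SE 0.11, edgeR's adjusted p 0.00119), a direction that also turned with total counts only (0.40, edgeR's adjusted p 0.00371). BEC was lower than intermediate (-0.46, SE 0.10, edgeR's adjusted p 0.00213), a call lost on that scale (-0.26, edgeR's adjusted p 0.0596). In the GENCODE M21 annotation, 26.1% of the exon bases of Pdgfa are shared with the antisense gene 6330403L08Rik, and the strandedness of the counting is not given in the sources used here, so reads of the pair cannot be told apart. For Pdgfc the shared part is 2.89%, with the antisense gene Gm16000, and for the other 5 ligands it is 0.

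Vegfa, the main angiogenic factor for blood vessels, was high at both ends of the series. Early libraries had 185, 246 and 273 CPM. Intermediate libraries, at 97.2, 103 and 126 CPM, lay below all early ones, and Vegfa was 2.15-fold lower (log2 fold change -1.11, SE 0.16, edgeR's adjusted p 6.75e-05). Full libraries had 111, 137 and 122 CPM and overlapped intermediate (0.18, SE 0.16, edgeR's adjusted p 0.416). BEC libraries had 214, 287 and 302 CPM, all above full, a 2.17-fold difference (1.12, SE 0.16, edgeR's adjusted p 0.000214). The ranges of BEC and early overlapped (0.19, SE 0.16, edgeR's adjusted p 0.297). Scaling by total counts only made the first step smaller (-0.44, edgeR's adjusted p 0.0293), placed BEC over early (1.06, edgeR's adjusted p 4.57e-05) and ended the call of full below early (-0.06, edgeR's adjusted p 0.738, against -0.93, edgeR's adjusted p 0.000173, with TMM). BEC against full was 1.12 with total counts only.

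Vegfb, which binds Flt1, had its lowest levels in BEC. Its libraries had 55.7, 40.6 and 53.3 CPM in early, 40.2, 35.6 and 36.96 CPM in intermediate, 33.2, 26.7 and 28.8 CPM in full, and 11.8, 17.6 and 16.4 CPM in BEC. Neighbouring groups did not overlap. The first step was called at -0.41 (SE 0.15, edgeR's adjusted p 0.0365), a call that ended without early replicate 1 or 3, intermediate replicate 2 or 3, or full replicate 3 (edgeR's adjusted p 0.129, 0.11, 0.11, 0.0868 and 0.0508), and the direction turned with total counts only (0.26, edgeR's adjusted p 0.152). The second step was not called (-0.35, SE 0.15, edgeR's adjusted p 0.0865), though it was without BEC replicate 1 (edgeR's adjusted p 0.0425) and in a fit of the 6 libraries of the groups compared (edgeR's adjusted p 0.0241). BEC was 1.94-fold below full (-0.95, SE 0.16, edgeR's adjusted p 0.000527).

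Vegfc, the lymphatic growth signal, was a minor transcript with its highest level in intermediate. Its levels were 4.51, 4.09 and 4.05 CPM in early, 8.11, 6.90 and 6.62 CPM in intermediate and 4.47, 3.84 and 4.81 CPM in full. Intermediate lay above both neighbours without overlap, by 1.71-fold over early (log2 fold change 0.77, SE 0.25, edgeR's adjusted p 0.0194) and by 1.65-fold over full (-0.72 for full against intermediate, SE 0.24, edgeR's adjusted p 0.0305). The rise was lost without early replicate 2 or intermediate replicate 1 (edgeR's adjusted p 0.0518 and 0.063). The fall was lost with total counts only (-0.52, edgeR's adjusted p 0.103) and without intermediate replicate 1 or 2 (edgeR's adjusted p 0.0931 and 0.0623) or full replicate 1, 2 or 3 (edgeR's adjusted p 0.0681, 0.118 and 0.0531).

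In BEC, Vegfc was close to the limit of detection. The 3 BEC libraries held 3, 6 and 12 counts, or 0.145, 0.280 and 0.548 CPM, and the lowest is at the floor of 3 counts. BEC was 13.1-fold below full (log2 fold change -3.71, SE 0.33, edgeR's adjusted p 2.63e-06) and 21.6-fold below intermediate (-4.44, SE 0.32, edgeR's adjusted p 7.17e-08). Without BEC replicate 3, the BEC library with the most counts, the log2 difference was -4.32 from full and -5.04 from intermediate. Full cells, which like BEC were sorted as Epcam-positive, overlapped early cells in Vegfc (0.05, SE 0.26, edgeR's adjusted p 0.865), a comparison that gave 0.92 (edgeR's adjusted p 0.00486) with total counts only. Vegfc in BEC and Pdgfd in early had low counts and passed the filter through the other groups.

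**Figure D2:**
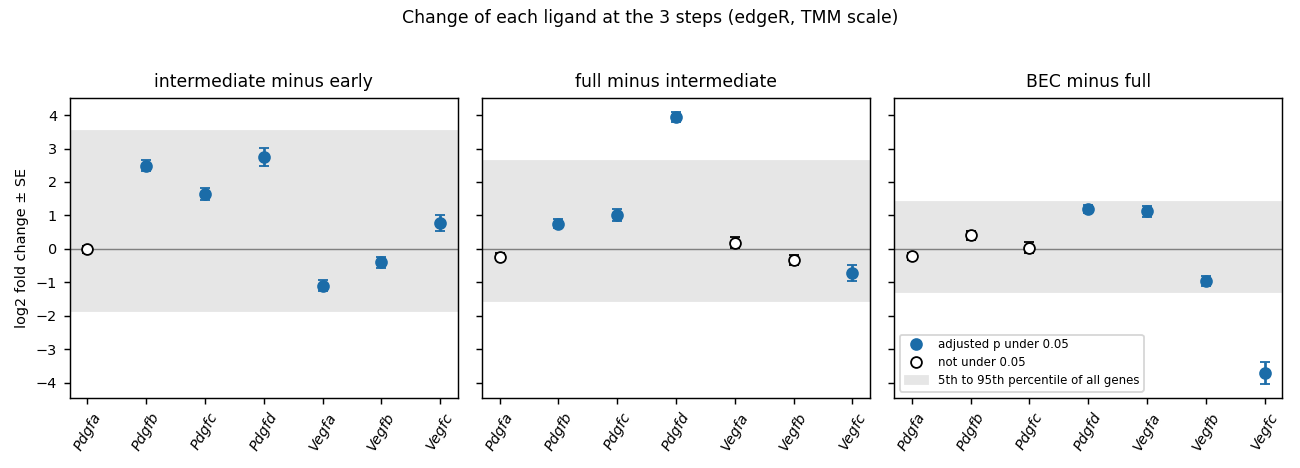
Log2 fold change of each ligand, with its standard error, for intermediate minus early, full minus intermediate and BEC minus full on the TMM scale. Filled points are called, open points are not, and the grey band holds the 5th to 95th percentile of the 16210 genes tested. Pdgfd at the second step (3.95) and Vegfc at the third (-3.71) lie outside the band.

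Over the longer comparisons, full against early gave 5 called ligands (3 higher, 2 lower), where 71.2% of all genes were called (39.1% higher, 32.1% lower). BEC against early gave 6 (3 higher, 3 lower), where 73.1% were called (40.0% higher, 33.0% lower). All 7 differed between BEC and intermediate, 4 higher and 3 lower in BEC, where 52.4% of all genes were called (26.3% higher, 26.2% lower). These splits rest on the TMM scale. With total counts only, where 81.2% of all genes were called and 81.8% of those calls were higher in full, full against early gave 5 higher, Pdgfa and Vegfc among them, and 0 lower, with Vegfa at -0.06 (edgeR's adjusted p 0.738) and Vegfb at 0.11 (edgeR's adjusted p 0.516). On that scale BEC against early gave 5 higher, Pdgfa (0.40) and Vegfa (1.06) among them, and 2 lower, and BEC against intermediate 4 higher and 2 lower, without Pdgfa. Of all genes, 82% and 54.1% were called there, with 80.3% and 66.5% of those calls higher. Among the 4 groups all 7 passed the F test, as did 75.6% of all genes. These comparisons share their early, intermediate or BEC libraries and are not independent. The median log2 fold change of the 7 was 0.77, 0.18 and 0.04 at the 3 steps, beside 0.06, 0.01 and 0.0046 for all genes tested.

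To compare the ligands with each other, CPM were divided by the exon length of each gene in GENCODE M21, from 1.605 kb for Vegfb to 5.089 kb for Pdgfc. In early, the order per kb was Vegfa (54.7 ± 10.5 CPM per kb, SD, n = 3), Vegfb (31.05 ± 5.06), Pdgfa (16.4 ± 0.364), Pdgfc (3.86 ± 1.19), Pdgfb (3.35 ± 0.442), Vegfc (1.72 ± 0.104) and Pdgfd (0.214 ± 0.0565). The library ranges of neighbours in this order did not overlap, except those of Pdgfc and Pdgfb. In BEC the order was Vegfa (62.5 ± 11.04 CPM per kb), Pdgfd (50.7 ± 3.68), Pdgfb (41.98 ± 7.75), Pdgfc (24.6 ± 2.71), Pdgfa (11.9 ± 1.30), Vegfb (9.50 ± 1.89) and Vegfc (0.132 ± 0.0839, SD, n = 3 each). Here the ranges of Vegfa and Pdgfd overlapped, as did those of Pdgfa and Vegfb. By mean, Vegfa was thus highest in both, followed by Vegfb in early and by Pdgfd, Pdgfb and Pdgfc in BEC.

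In intermediate, Vegfa (25.4 ± 3.59 CPM per kb, SD, n = 3) and Vegfb (23.4 ± 1.48) overlapped at the top, followed by Pdgfb (18.8 ± 1.99) and Pdgfa (16.3 ± 1.89), which overlapped each other. Pdgfc (12.01 ± 2.37) overlapped Pdgfa, and Vegfc (2.94 ± 0.323) and Pdgfd (1.45 ± 0.319) came last without overlap. In full, Pdgfb (31.8 ± 3.70 CPM per kb), Vegfa (28.8 ± 3.03), Pdgfc (24.00 ± 2.15), Pdgfd (22.2 ± 3.16) and Vegfb (18.4 ± 2.06) lay close together, and each overlapped the next in order. Pdgfa (13.9 ± 0.697) and Vegfc (1.78 ± 0.202) were below them.

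**Figure D3:**
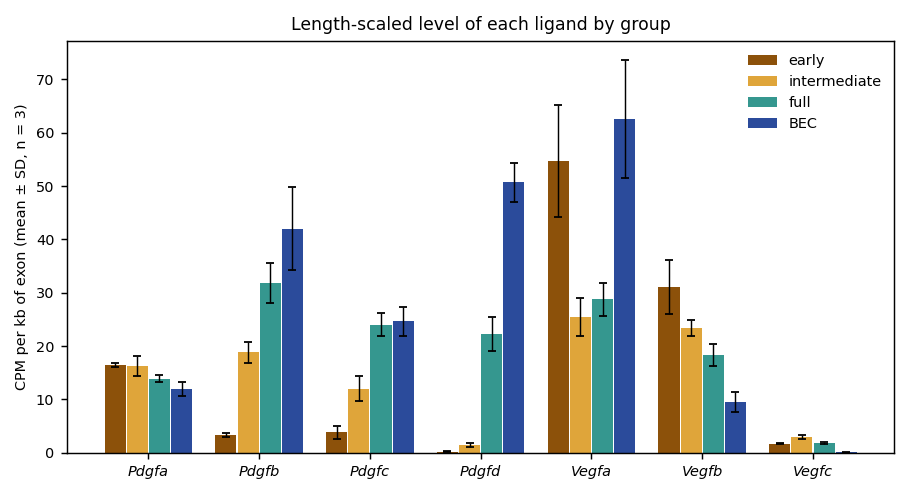
CPM per kb of exon for each ligand in early, intermediate, full and BEC, with the SD of 3 libraries. Vegfa and Vegfb have the 2 highest means of the early group, and Vegfa, Pdgfd and Pdgfb the highest means of BEC.

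Of the 2 further ligands of the family, Vegfd, which like Vegfc binds Flt4, had 2.27 ± 0.646 CPM in early, 1.51 ± 0.0817 in intermediate, 1.01 ± 0.241 in full and 0.232 ± 0.117 in BEC (mean ± SD, n = 3). It was lower in BEC than in full (log2 fold change -2.08, edgeR's adjusted p 0.00314) and was not called at the first 2 steps. Pgf, a ligand of Flt1, did not pass the filter, with between 0 and 4 counts in any library.

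Proteases that activate these ligands took opposite courses, with Plat, Plau and St14 higher and Furin, Pcsk5 and Pcsk6 lower in full than in early by edgeR's test, also with total counts only. Of 8 such genes and cofactors, 7 were tested, and 4, 7 and 4 were called at the 3 steps, with 1 higher and 3 lower, 4 higher and 3 lower, and 2 higher and 2 lower. These counts, and those of the lists that follow, stand beside 54.4%, 40.7% and 21.3% of all genes called at the 3 steps, so that 4 of 7 at the first step is near the share of all genes. With total counts only, the shares of all genes for this list and those that follow were 69.4%, 44.5% and 21.3% at the 3 steps. On that scale 3 of the 7 were called higher and 3 lower at the first step, with a median of 1.04, beside 0.72 for all genes. Plat, tissue plasminogen activator, which can cleave the CUB domain from Pdgfc, had 3.09 ± 0.713 CPM in early, 35.2 ± 15.7 in intermediate, 76.7 ± 14.4 in full and 70.2 ± 20.8 in BEC (mean ± SD, n = 3). Its log2 fold changes were 3.51 (edgeR's adjusted p 2.22e-06), 1.13 (edgeR's adjusted p 0.00523) and -0.13 (edgeR's adjusted p 0.816). Plau, urokinase, and St14, matriptase, both able to process Pdgfd, rose at the second step and were higher in BEC than in full. Plau had 3, 3 and 0 counts in early and 0.578 ± 0.382 CPM in intermediate, then 9.08 ± 1.68 in full and 39.96 ± 7.95 in BEC, with log2 fold changes of 3.99 and 2.14 (edgeR's adjusted p 1.39e-06 and 3.07e-05). St14 was at 31.5 ± 9.68, 40.7 ± 8.71, 141 ± 22.8 and 346 ± 26.02 CPM in the 4 groups, with 1.79 at the second step and 1.30 at the third (edgeR's adjusted p 1.65e-05 and 0.000397). Its first step was not called (0.37, edgeR's adjusted p 0.161) but was with the replicate block (edgeR's adjusted p 0.0376).

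The proprotein convertases, which cut ligands such as Pdgfb and Vegfc, were lower after the first step. Furin had 539 ± 22.7 CPM in early, 280.0 ± 8.94 in intermediate (log2 fold change -0.95, edgeR's adjusted p 1.3e-06), 225 ± 14.3 in full and 225 ± 19.1 in BEC (mean ± SD, n = 3). Its second fall (-0.32, edgeR's adjusted p 0.0126) was lost with total counts only (-0.12, edgeR's adjusted p 0.319) and without intermediate replicate 2 or full replicate 3 (edgeR's adjusted p up to 0.0621). Pcsk6 fell at each step, with 176 ± 10.8, 66.1 ± 8.10, 13.3 ± 2.02 and 7.11 ± 0.554 CPM (edgeR's adjusted p 2.93e-07, 3.54e-08 and 0.000197). Pcsk5 did so too, with 48.9 ± 1.59, 17.03 ± 4.23, 5.32 ± 1.68 and 2.88 ± 0.295 CPM, but its last call (-0.88, edgeR's adjusted p 0.0125) was lost without full replicate 3 or BEC replicate 1 (edgeR's adjusted p up to 0.0688). Adamts3, which activates Vegfc, had 0 counts in the early libraries, 1, 0 and 3 in intermediate and 0.652 ± 0.135 CPM in full, and its call at the second step was lost without intermediate replicate 2 (edgeR's adjusted p 0.0616). Its cofactor Ccbe1 did not pass the filter. The median log2 fold change of the 7 tested was 0.37 at the first step, then 1.13 and 0.0025, beside 0.06, 0.01 and 0.0046 for all genes. With Adamts3 assigned a change of 0 at the first step, where no library exceeded 3 counts, the median there was that assigned 0.

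**Figure D4:**
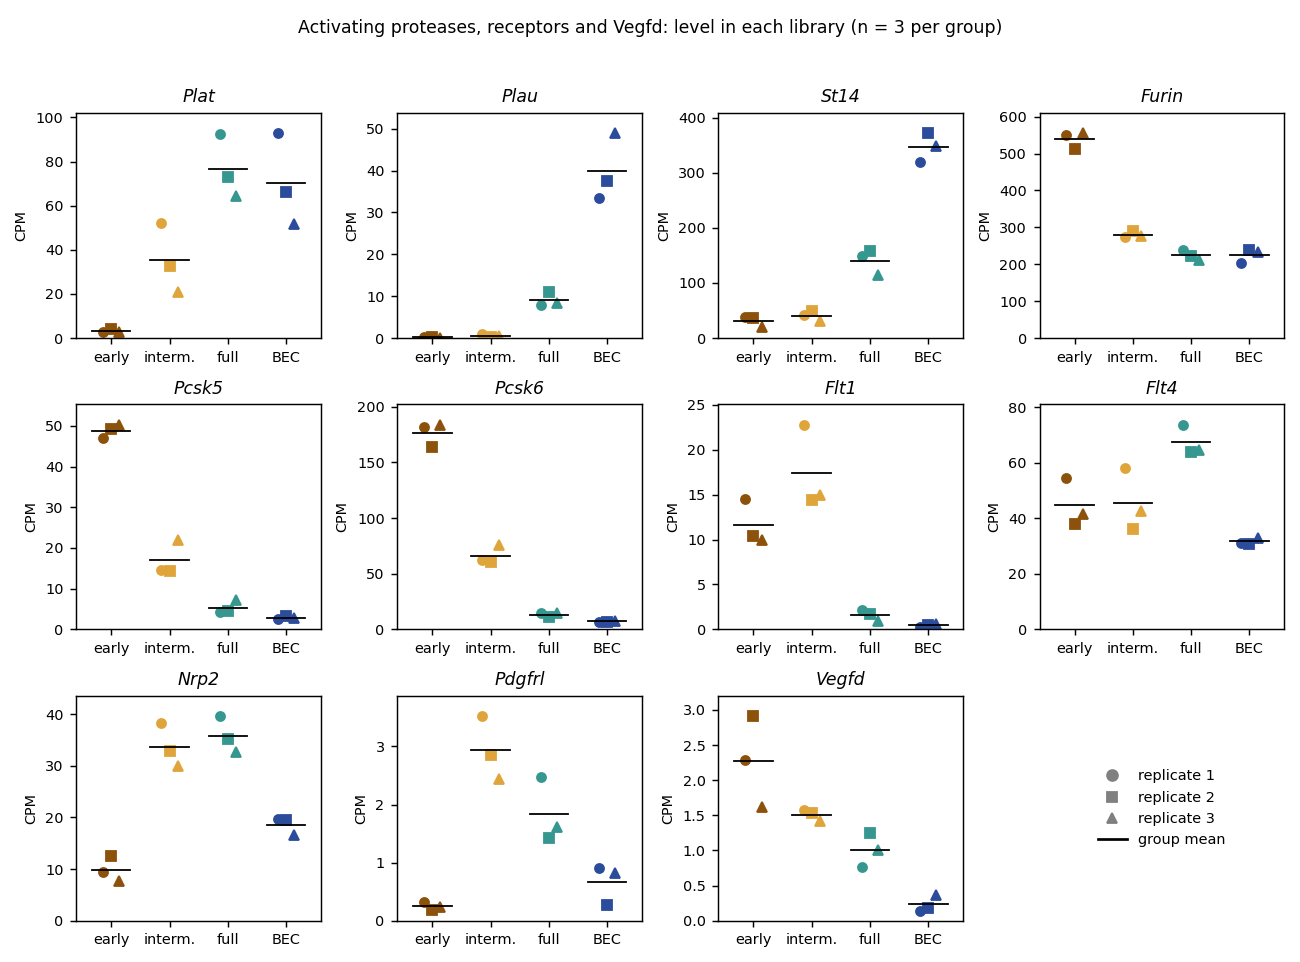
Level in CPM of 6 activating proteases, the receptors Flt1 and Flt4, the co-receptor Nrp2, Pdgfrl and the ligand Vegfd in each library, on linear axes from 0, with a line at the mean of each group of 3. Plat, Plau and St14 have their lowest means in early, where Furin, Pcsk5 and Pcsk6 have their highest, and Flt1 is at 2.17 CPM or less in full and BEC.

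The receptors of these ligands were read in the same cells. PDGF receptor levels were low throughout. Pdgfra had 2.96 ± 2.11 CPM in early, 2.50 ± 0.514 in intermediate, 1.11 ± 0.426 in full and 1.23 ± 0.382 in BEC (mean ± SD, n = 3). Pdgfrb had 4.35 ± 2.68, 2.24 ± 1.44, 1.41 ± 0.340 and 2.57 ± 0.508 CPM, and neither was called at any of the 3 steps. Over the whole course both were lower in full than in early, Pdgfra by -1.39 (edgeR's adjusted p 0.0295) and Pdgfrb by -1.62 (edgeR's adjusted p 0.0136) on the log2 scale. Both calls were lost without early replicate 2, early replicate 3 or full replicate 2 (edgeR's adjusted p up to 0.206 and 0.0688) and with total counts only (-0.53 and -0.76, edgeR's adjusted p 0.359 and 0.192). Early replicate 1 had 0.791 CPM of Pdgfra and 1.27 of Pdgfrb, below full replicate 1 (1.32 and 1.40 CPM). Of the 11 stellate cell and fibroblast markers tested, both receptors among them, 9 were called lower and Rgs5 higher in full than in early, and 4 lower and Rgs5 higher with total counts only, where 81.2% of all genes were called. Among them Col3a1 had 61.1 ± 33.9 CPM in early and 11.5 ± 4.61 in full, and Rgs5 had 40.98 ± 7.99 and 3185 ± 228 CPM. The part of these cells in the receptor values was not tested. Pdgfrl, a secreted protein related to the receptors, rose at the first step from 0.247 ± 0.0673 to 2.93 ± 0.548 CPM (log2 fold change 3.52, edgeR's adjusted p 4.74e-05). It was lower in BEC than in full (-1.44, edgeR's adjusted p 0.0193), a call lost without full replicate 1 or BEC replicate 2 (edgeR's adjusted p up to 0.0939). Of the 3 PDGF receptor genes, 1, 0 and 1 were called at the 3 steps, and all 3 for full against early (1 higher, 2 lower), where 71.2% of all genes were called.

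Of 5 VEGF receptors and co-receptors, 1 (higher), 2 (1 higher, 1 lower) and 3 (all lower) were called at the 3 steps, with medians of 0.03, 0.09 and -0.95, and with total counts only the first 2 steps had 3 (all higher) and 3 (2 higher, 1 lower), with medians of 0.69 and 0.29. On that scale 69.4% and 44.5% of all genes were called at these steps, with medians of 0.72 and 0.21. Flt1 had 14.5, 10.4 and 9.95 CPM in early and 22.8, 14.4 and 14.9 CPM in intermediate. It fell to 2.17, 1.69 and 0.918 CPM in full (log2 fold change -3.44, edgeR's adjusted p 1.43e-06) and was lower still in BEC at 0.465 ± 0.175 CPM (-1.76, edgeR's adjusted p 0.00614). The first step of Flt1 was not called (0.58, edgeR's adjusted p 0.0844) but was with the replicate block (edgeR's adjusted p 0.0331) or on the scale of total counts (edgeR's adjusted p 0.00113). Flt4, the receptor of Vegfc, had 44.7 ± 8.60 CPM in early, 45.7 ± 11.2 in intermediate and 67.4 ± 5.46 in full. Its rise at the second step (0.56, edgeR's adjusted p 0.012) was lost without intermediate replicate 2 (edgeR's adjusted p 0.0663). BEC had 31.7 ± 1.04 CPM of Flt4, less than full (-1.09, edgeR's adjusted p 0.000237).

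Kdr, the main signalling receptor of Vegfa, had a mean of 1.49 CPM in early, 1.26 in intermediate and 0.424 in full, with replicate 1 lowest in each group. Its second step was not called (-1.57, edgeR's adjusted p 0.159) but was with the replicate block (edgeR's adjusted p 0.0258). Nrp2, a co-receptor for Vegfc, rose at the first step from 9.91 ± 2.46 to 33.7 ± 4.22 CPM (1.77, edgeR's adjusted p 9.64e-07) and was lower in BEC at 18.6 ± 1.78 CPM than in full at 35.8 ± 3.52 CPM (-0.95, edgeR's adjusted p 0.000487). Nrp1, a co-receptor for Vegfa, had means of 57.3, 45.97, 58.5 and 48.6 CPM and was not called at the 3 steps, though the block called the first (edgeR's adjusted p 0.0209) and the second (edgeR's adjusted p 0.021).

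Endothelial markers stand beside the receptor values, since Flt1, Flt4 and Kdr are abundant in vessels. The 12 markers, Kdr among them, summed to 18.3 to 36.2 CPM in early, 10.8 to 27.3 in intermediate, 7.15 to 8.35 in full and 10.6 to 15.9 in BEC. Group means of Pecam1 were at most 1.14 CPM and those of Cdh5 at most 1.42 CPM, while Emcn and Erg had 3 counts or fewer in all full and BEC libraries. Stab2, a marker of sinusoidal endothelium, had 11.9 ± 0.949, 5.02 ± 1.64, 1.40 ± 0.732 and 0.938 ± 0.830 CPM in early, intermediate, full and BEC. It fell at the second step (log2 fold change -1.84, edgeR's adjusted p 0.00639), where Flt1 fell too. At the first step they differed, as the mean of Stab2 was lower in intermediate and that of Flt1 higher (17.4 against 11.6 CPM, not called). Vwf had 1.36 ± 0.224, 4.26 ± 1.61, 2.40 ± 0.976 and 5.49 ± 0.354 CPM (SD, n = 3), highest in BEC. Stab2 and Vwf were singled out after their values were seen. Of the 9 markers tested, 2 (1 higher, 1 lower), 3 (all lower) and 1 (higher) were called at the 3 steps, or 1 (higher), 2 (lower) and 1 (higher) with total counts only. Their part in the receptor values was not tested. In bulk samples, fewer cells of a type and less RNA per cell cannot be told apart.

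Stromal and blood cells can be sources of PDGF and VEGF, and their markers were read in the same way. The 12 stellate cell and fibroblast markers, Pdgfra and Pdgfrb among them, summed to 147 to 383 CPM in early and 2994 to 3463 CPM in full. Most of the sum outside early was Rgs5, singled out after its values were seen, with 40.98 ± 7.99 CPM in early (SD, n = 3), then 1970.3 ± 428, 3185 ± 228 and 1918 ± 305 CPM in the later groups. Lrat and Des, which mark stellate cells, had group means of at most 2.34 and 0.834 CPM, and Col1a1 had 40.9 ± 20.1 CPM in early and 19.4 ± 6.77 in BEC. Of the 11 tested, 3, 2 and 2 were called at the 3 steps (1, 1 and 0 of them higher). Between full and early 10 were called, Rgs5 higher and the other 9 lower (2 of them the receptors given before), with a median log2 fold change of -1.62, where 71.2% of all genes were called. Between BEC and early 8 were called, 1 higher and 7 lower, with a median of -1.23, where 73.1% of all genes were called, so this count is near the share of all genes. With total counts only, 5 (1 higher, 4 lower) and 2 (1 higher, 1 lower) were called in these comparisons, where 81.2% and 82% of all genes were called.

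The 11 macrophage markers summed to 24.8 to 26.6 CPM in early and 133 to 159 CPM in BEC. Csf1r, also singled out afterwards, made up 127 ± 6.69 CPM in BEC, where C1qa had 2.41 ± 2.29 and Adgre1 0.522 ± 0.486 CPM (SD, n = 3). Of the 9 tested, 2 (1 higher, 1 lower), 1 (higher) and 2 (both higher) were called. Of 6 platelet markers, Gp1bb and Gp6 had 0 counts in all 12 libraries, Ppbp had 0 in all libraries but BEC 2 and 3 (0, 3 and 1 counts in BEC), Gp9 had 0 in all but BEC 3 (4 counts), and Pf4 had 4.21 ± 0.0900 CPM in BEC. The 6 summed to 2.59 to 3.91 CPM in early and 5.92 to 7.17 CPM in BEC, and of the 2 tested 0, 1 (higher) and 0 were called. The part of these cells in the ligand and receptor levels was not tested.

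Vegfa is a classical target of hypoxia-inducible factors (HIF), and the genes of that pathway were set beside it. Of 8 HIF pathway genes, 4 (1 higher, 3 lower), 2 (both lower) and 2 (1 higher, 1 lower) were called at the 3 steps, with medians of -0.08, -0.13 and -0.08, but with total counts only the first step had 5 higher and 0 lower (median 0.58) and the second 2 higher and 1 lower (median 0.07). All genes on that scale had 69.4% called at the first step (median 0.72) and 44.5% at the second (median 0.21). Egln3, an oxygen sensor that is itself a HIF target, had 41.95 ± 9.48 CPM in early, 21.99 ± 1.55 in intermediate, 25.8 ± 1.25 in full and 49.98 ± 7.85 in BEC (mean ± SD, n = 3). It fell at the first step (log2 fold change -0.93, edgeR's adjusted p 0.000156), a call lost with total counts only (-0.27, edgeR's adjusted p 0.129), and was higher in BEC than in full (0.95, edgeR's adjusted p 0.000363). Hif1a rose at the first step from 80.5 ± 4.44 to 112 ± 6.60 CPM (0.48, edgeR's adjusted p 0.00252). Epas1, which encodes HIF-2α, had 336 ± 32.7, 217 ± 21.4 and 148 ± 5.94 CPM in early, intermediate and full (edgeR's adjusted p 0.000128 and 0.000656), and the sign of its first step turned with total counts only (0.03, edgeR's adjusted p 0.814). Hif1a had 105 ± 5.17 CPM in full and 95.2 ± 16.6 in BEC, where Epas1 had 141 ± 9.05. Egln1 and Egln2 had their highest means in early (48.6 and 130 CPM) and their lowest in BEC (38.8 and 51.4 CPM). The part of HIF in the course of Vegfa was not tested.

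Of the 10 other hypoxia-response genes, at the 3 steps 6 (3 higher, 3 lower), 3 (2 higher, 1 lower) and 6 (2 higher, 4 lower) were called, with medians of 0.04, 0.10 and 0.06. The first step had 5 higher and 1 lower with total counts only, with a median of 0.70, beside 0.72 for all genes. Car9, a surface carbonic anhydrase, rose at each step, with 2, 2 and 0 counts in early and 0.603 ± 0.375, 3.21 ± 0.778 and 16.9 ± 2.14 CPM in intermediate, full and BEC. Its first call was lost without early replicate 3, intermediate replicate 1 or intermediate replicate 2 (edgeR's adjusted p up to 0.0733). Bnip3, a mitophagy gene, fell at each step, with 140.2 ± 17.4, 46.9 ± 3.53, 20.8 ± 1.65 and 7.94 ± 1.17 CPM (edgeR's adjusted p 1.36e-07, 5.04e-06 and 4.7e-06). Adm, a vasodilator peptide, was lower in BEC than in full (-1.41, edgeR's adjusted p 0.0356), a call lost without intermediate replicate 2, full replicate 2, full replicate 3 or any 1 of the BEC libraries (edgeR's adjusted p up to 0.209).

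Other ligands to vessels and stroma, 15 by list and 14 tested, were called in 9 cases at the first step (7 higher, 2 lower), 8 at the second (6 higher, 2 lower) and 4 between full and BEC (2 higher, 2 lower). Their medians were 1.72, 0.48 and 0.22. The first 2 steps had 8 higher and 1 lower and 7 higher and 2 lower with total counts only, with medians of 2.37 and 0.68. Ccn2, a matricellular protein linked to fibrosis, rose from 8.62 ± 2.55 to 256 ± 38.7 CPM at the first step (log2 fold change 4.90, edgeR's adjusted p 1.22e-09). Tgfb3, a TGF-beta ligand, rose from 0.478 ± 0.370 to 12.1 ± 3.30 CPM (4.65, edgeR's adjusted p 1.07e-07). Edn1, endothelin, a constrictor of vessels, was at 0.959 ± 0.559 CPM in intermediate, 6.68 ± 3.23 in full and 25.01 ± 5.16 in BEC (2.77 and 1.91, edgeR's adjusted p 0.000231 and 0.00135). Ihh, a hedgehog ligand, fell at the first step from 36.3 ± 11.5 to 5.15 ± 2.85 CPM (-2.80, edgeR's adjusted p 8.06e-06) and at the second to 0.930 ± 0.0355 CPM (-2.47, edgeR's adjusted p 0.000236). BEC, at 2.81 ± 0.741 CPM, was above full (1.59, edgeR's adjusted p 0.0127), a call lost without BEC replicate 3 (edgeR's adjusted p 0.0563), and 12.8-fold below early (edgeR's adjusted p 3.43e-07).

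For each ligand, the genes with the most similar pattern were taken by Pearson's r of log2 CPM over the 12 libraries, among 11268 candidates for each ligand but Vegfc, which had 11269. The libraries of a group share that group, so r is a description. Pdgfb was most like Marchf9 (0.9965) and Fgd3 (0.9944), Pdgfc like Atp10a (0.9962) and Ntng2 (0.9953), and Pdgfd like Pitpnm3 (0.9969) and Epn3 (0.9962). For these 3 ligands, 1029, 789 and 647 genes had r above 0.95. For Vegfa 1 gene was above 0.95 and for Pdgfa 4. Such counts also depend on how far a ligand moves beside the spread of its replicates, so they do not show that a course is rare. Closest to Vegfa were Tmtc2 (0.9643), with 14.5 ± 2.98 CPM in early, 3.94 ± 0.960 in intermediate, 4.42 ± 0.538 in full and 16.6 ± 0.442 in BEC (mean ± SD, n = 3), and Tmem64 (0.9401). Pdgfa was nearest to Tarsl2 (0.963) and Aatf (0.955), Vegfb to Tmem200b (0.9877) and Pxdc1 (0.984), and Vegfc to Tbkbp1 (0.9882) and Csrp2 (0.9861). By Spearman's rho, 1 of these 14 genes, Tarsl2, was again among the 2 closest.

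The scale chosen for the libraries shifted every comparison with early. With total counts only, all genes had a median log2 fold change of 0.72 between intermediate and early, against 0.06 with TMM, and 85.6% of the calls were higher in intermediate, against 52.8%. On that scale Pdgfa was higher in intermediate (0.66, edgeR's adjusted p 0.000107), a value close to the median of all genes. Pdgfb (3.15), Pdgfc (2.31) and Pdgfd (3.41) stood above that median and Vegfa (-0.44) below it, as with TMM. Between full and intermediate that median was 0.21 with 72.6% of calls higher, against 51.2% with TMM. For full and BEC against early it was 1.005 and 1.0044, with 81.8% and 80.3% of calls higher, against 54.9% and 54.8%, and for BEC against intermediate 0.20 with 66.5%, against 50.1%. Between BEC and full it was 0.0063, beside 0.0046 with TMM.

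**Figure D5:**
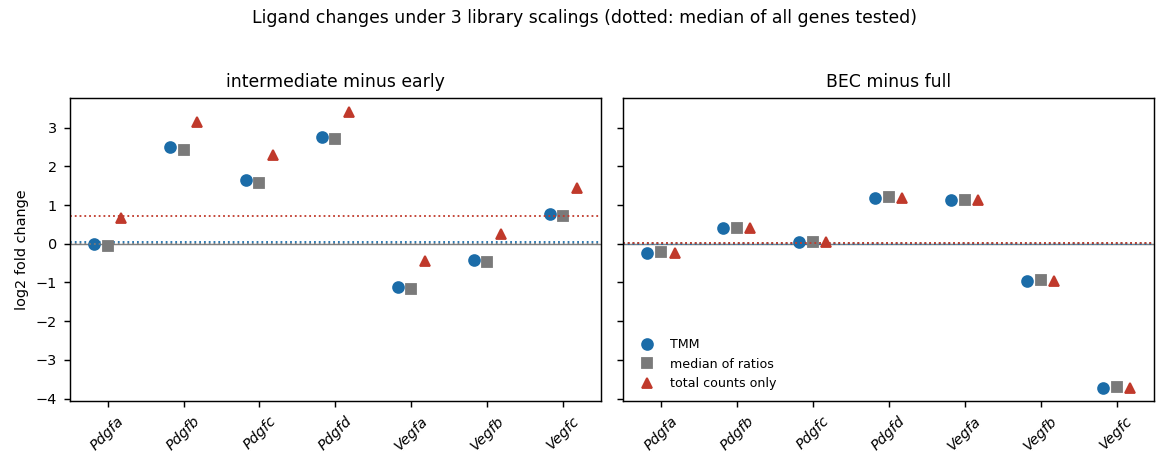
Log2 fold change of each ligand for intermediate minus early and BEC minus full with TMM factors, median-of-ratios factors and total counts only, with a dotted line at the median of all genes for each scaling. With total counts only, the 7 values and the median (0.72) shift upward together in the first comparison, where Pdgfa and Vegfb turn positive, while in the second the 3 scalings nearly coincide.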

How the data were processed

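Sorted liver cells were profiled by RNA-seq in 12 libraries, 3 in each of 4 groups, which were taken from the titles and sorted markers in the labels. The authors deposited raw counts per gene symbol. Per the submitters' processing notes, STAR 2.7.10b, featureCounts 2.0.1, DESeq2 and the build GRCm39 were used. Annotation and strandedness are not given in the sources used here. A second table of scaled values was not used. All 53599 rows of the count table named a gene, and each column of values belonged to a sample.

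Tests were run in R (4.3.3) with edgeR (version 4.0.16), which calls limma (version 3.58.1), and DESeq2 (version 1.42.0). Figures were drawn in matplotlib 3.10.9 under Python 3.11.15. Genes were filtered with filterByExpr by group (minimum count 10), which kept 16210 genes and, in the library with the smallest share, 99.8568% of counts. All 12 libraries entered 1 quasi-likelihood fit with TMM factors (common biological coefficient of variation 14.8%), and p-values were adjusted by Benjamini-Hochberg over all genes tested. In data simulated after the comparison of intermediate with early, on 14691 genes of which 200 were changed by a log2 fold change of 2, 99% of the changed genes were recovered and 3.88% of calls were unchanged genes. The simulation gave every gene the same coefficient of variation and changed as many genes up as down. It cannot show the error rate in these data, where 54.4% of genes were called at this step, or the recovery of smaller changes. Log2 CPM used a prior count of 2. The floor of 3 counts corresponds to 0.128 to 0.273 CPM and covers counting error only. Exon lengths are from GENCODE M21 (GRCm38), a different build from that of the counts, so levels per kb are approximate.

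The ligands and the gene lists were chosen with earlier results of these data known, and no list was given a test of its own. All 7 ligands are named. Of the lists of hypoxia-response genes and of other ligands, the 2 called genes with the largest absolute change at each step may be named, and of the receptor, protease and HIF lists the members that bear on the ligands. For the most similar genes, candidates had a mean of at least 5 CPM.

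The labels number the replicates, but not what a number marks. Deviations of same-numbered libraries from their group means correlated at 0.12 to 0.29 between intermediate and early, 0.14 to 0.32 between full and intermediate and 0.17 to 0.26 between BEC and full, over 0.1 in all pairs of these steps, so the fit with the replicate number as a block is given where it changes a call. Alternatives were DESeq2, median-of-ratios factors, total counts only, no filter, a mean of at least 50 counts, fits of only the 6 libraries compared, the block, a test against a 2-fold change and leaving out each library.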

Additional observations from a re-analysis of the deposited data

How the results depend on the processing

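Of 336 values of ligand changes under other settings, 300 kept their direction and their side of the threshold, 20 lost a call, 10 gained one and 6 changed sign; of 504 values with 1 library left out, 480 kept both, 12 lost a call, 6 gained one and 6 changed sign. With total counts only the sign turned for Pdgfa in intermediate (0.66), full (0.63) and BEC (0.40) against early, and for Vegfb in intermediate (0.26) and full (0.11) against early, since this scale moves the median of all genes upward in those comparisons. Without the filter, Pdgfa in intermediate against early was 0.034; the cause was not tested. Leaving out 1 library gave -0.10 to 0.072 for that value, -0.054 to 0.11 for Pdgfc in BEC against full and -0.017 to 0.14 for Vegfc in full against early. Requiring a change of more than 2-fold left 3, 1 and 1 ligands called at the 3 steps, 3 for full against early and 2 for BEC against intermediate, and 67 of 134 calls over all lists and steps, a stricter threshold by construction. Of all genes, it called 17.1%, 11.9% and 4.95% at the 3 steps, 35% for full against early and 19.8% for BEC against intermediate. For BEC against early it called Pdgfb, Pdgfc, Pdgfd, Vegfb and Vegfc, beside 37.8% of all genes. With 1 library left out, the calls were 5 to 6, 3 to 5 and 4 to 5 at the 3 steps, 5 to 6 (full against early), 6 in each fit (BEC against early), 7 in each fit (BEC against intermediate, and the F test among 4 groups) and 124 to 143 over the lists. With the replicate block, 6, 4 and 5 ligands were called at the 3 steps, beside 57.2%, 45% and 25.3% of all genes, and 156 genes over the lists. Among the ligands the block added Pdgfb in BEC against full and Pdgfa in full against early (-0.24, edgeR's adjusted p 0.0281), where same-numbered libraries did not all correlate above 0.1 (lowest 0.096), and changed no other call. By Spearman's rho, 1 of the 14 most similar genes was again chosen. Depth limits Pdgfd in early (6 to 9 counts per library) and Vegfc in BEC (3 to 12).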
